A study of Mus musculus with 2 samples.

Results

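Histone genes were followed in cultured mouse neutrophils that lacked the microRNA miR-223 and in neutrophils that had it. The members were the probe sets that the platform annotation assigned only to symbols beginning with a histone gene name. There were 46 of them among 45037 probe sets, and together they cover 58 of the 19324 genes that the annotation names. Of the 46, 26 belong to replication-dependent histones, whose genes carry or once carried a name of the Hist1 to Hist4 clusters, and 20 belong to variant histones, whose genes do not. Probe sets assigned to 1 gene numbered 35. The other 11 are shared by several histone genes, up to 12, and their signal cannot be divided among those genes.

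Histones package DNA: H2A, H2B, H3 and H4 form the nucleosome core, and H1 binds the linker DNA between nucleosomes. Replication-dependent histone genes lie in clusters, lack introns in most cases and are transcribed mainly in S phase, and most of their messenger RNAs end in a stem-loop bound by Slbp in place of a poly(A) tail. Variant histones are made outside S phase as well, from transcripts with ordinary poly(A) tails, and replace core histones at particular sites. Neutrophil precursors divide, then leave the cell cycle and compact their chromatin into a lobed nucleus.

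A single Affymetrix 3' array was hybridized per genotype. The mir-223 knockout array and the wild-type array both hold total RNA of neutrophils grown from bone marrow progenitors of male C57BL/6 mice. The progenitors of both were kept for 6 days with G-CSF and SCF, cytokines for granulocyte production and for progenitor growth, and both cultures received 100 ug/ml of the translation blocker cycloheximide for the last 8 min. The number of mice behind each array is not given in the labels. Because there were no replicates, nothing could be tested or set against replicate error, and every statement compares these 2 arrays alone. Differences are given as log2(intensity + 16) of the knockout array minus that of the wild-type array. The deposited values are linear intensities, and the number of arrays limits their precision. Intensities of different probe sets do not rank the genes, because each probe set has its own response. The kit used here copies RNA from its poly(A) tail, and inhibitors of translation are known to stabilize replication-dependent histone messenger RNA. Transcripts of this class without a poly(A) tail may be missed on both arrays, and their share is not known here.

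The deleted microRNA was not measured by a named probe set, so the deletion itself was not checked. Its mature form is shown as the identity of what the knockout lacks, from RefSeq (GRCm38.p6, chrX:96242884-96242905, + strand), with the seed, bases 2 to 8, in capitals.
mmu-miR-223-3p: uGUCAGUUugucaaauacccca

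The promoters set the replication-dependent class apart in sequence, which the choice of members by name did not use. The RefSeq promoter table (GRCm38.p6) held 300-base windows, from 250 bases before to 50 after the start, for 53 of the 58 genes. Both strands were searched for TATAAA (the TATA box), CCAAT, ATTTGCAT (the octamer of H2B promoters), GGGCGG (the GC box) and AAACACA (the H1 box). These motifs share no whole match with each other, though neighbouring matches can overlap. CCAAT was present in 31 of 31 windows of 30 replication-dependent genes (100%), against 8 of 23 windows of variant genes (34.8%) and 37.4% of all 32851 windows in the table. TATAAA was found in 45.2% of the replication-dependent windows, in 8.70% of the variant windows and in 13.6% of all windows. The octamer stood in 25.8% of replication-dependent windows, 4.35% of variant windows and 1.74% of all windows. By protein class, it occurred in 3 of 5 H2B windows and in 5 of 13 H2A windows, and in none of 10 H3 or 3 H1 windows. The H1 box was present in 3 of 3 windows of replication-dependent H1 genes, against 7.18% of all windows. GGGCGG did not separate the classes in this way, with 35.5% of replication-dependent, 21.7% of variant and 35.7% of all windows. H2A and H2B genes that lie head to head share part of their windows, and many cluster genes are close copies, so the windows are not independent. The 24 variant genes include 11 H2al1 genes that share 1 probe set, and other germ cell genes without an expressed probe set. Shares for the variant windows are therefore not those of the expressed variants, such as the H2A.Z and H3.3 genes, alone. A match is a description of these letters and not evidence of binding.

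**Figure D1:**
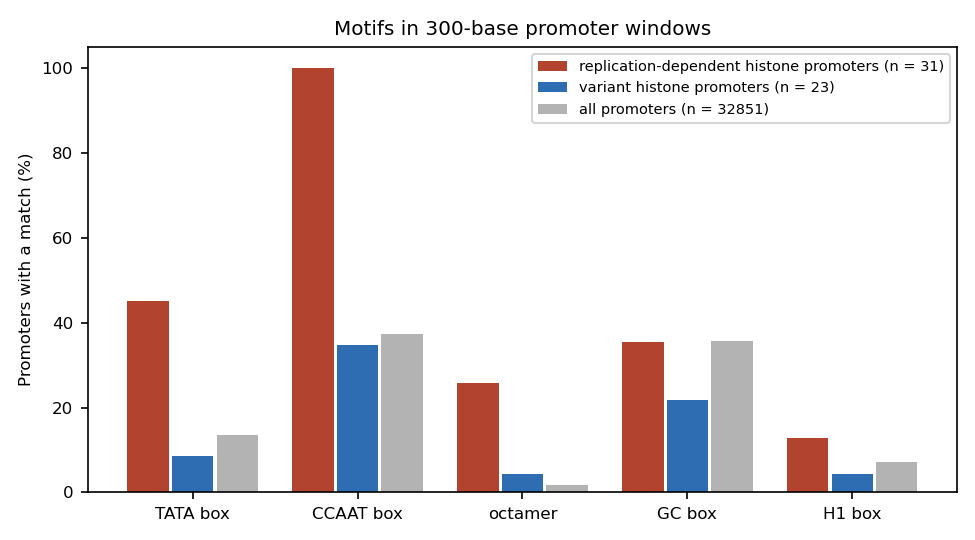
Share of promoter windows (percent) with a match to each of 5 motifs, for 31 windows of replication-dependent histone genes (red), 23 of variant histone genes (blue) and all 32851 windows (grey). The CCAAT bar stands at 100% for the replication-dependent genes, against 34.8% for the variants and 37.4% for all windows.

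The windows below belong to the 2 replication-dependent genes with the highest differences described next, the one with the lowest, and the variant with the highest, so that the sequence can be read beside the values. Capitals mark matches to any of the 5 motifs on either strand.
H1f2 (chr13:23738557-23738856, + strand): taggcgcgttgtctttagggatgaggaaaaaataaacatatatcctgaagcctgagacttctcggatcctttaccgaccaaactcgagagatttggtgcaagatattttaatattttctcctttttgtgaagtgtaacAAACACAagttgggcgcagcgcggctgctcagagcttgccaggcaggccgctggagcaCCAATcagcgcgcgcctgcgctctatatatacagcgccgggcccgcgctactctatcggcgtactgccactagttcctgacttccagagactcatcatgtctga
H2ac19 (chr3:96240325-96240624, - strand): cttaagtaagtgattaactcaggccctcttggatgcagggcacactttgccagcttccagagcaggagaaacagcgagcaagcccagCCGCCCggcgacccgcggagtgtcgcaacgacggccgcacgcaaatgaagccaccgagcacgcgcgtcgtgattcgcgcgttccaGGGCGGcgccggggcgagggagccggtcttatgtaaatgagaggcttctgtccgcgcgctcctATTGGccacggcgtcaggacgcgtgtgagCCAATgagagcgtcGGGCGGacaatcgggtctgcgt
H3c4 (chr13:23575513-23575812, + strand): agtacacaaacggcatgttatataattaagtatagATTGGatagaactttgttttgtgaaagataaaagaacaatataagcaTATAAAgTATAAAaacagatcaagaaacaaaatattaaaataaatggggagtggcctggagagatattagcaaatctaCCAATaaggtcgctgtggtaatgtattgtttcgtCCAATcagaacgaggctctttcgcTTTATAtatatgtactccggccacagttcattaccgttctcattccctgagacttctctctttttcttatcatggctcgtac
H3f3b (chr11:116024455-116024754, - strand): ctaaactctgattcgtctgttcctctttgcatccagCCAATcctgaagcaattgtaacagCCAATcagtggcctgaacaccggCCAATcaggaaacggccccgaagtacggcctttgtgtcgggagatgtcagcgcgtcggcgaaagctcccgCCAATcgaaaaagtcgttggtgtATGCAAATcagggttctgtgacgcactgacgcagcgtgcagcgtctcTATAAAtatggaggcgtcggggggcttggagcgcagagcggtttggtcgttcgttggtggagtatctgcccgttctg
The H1f2 window holds 1 H1 box and 1 CCAAT. That of H2ac19 holds 2 CCAAT and 3 GGGCGG matches, and that of H3c4 holds 3 CCAAT and 3 TATAAA matches. H3f3b, a variant gene, has 4 CCAAT matches, 1 TATAAA and 1 octamer.

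Most histone probe sets with signal were slightly higher on the knockout array, in both classes. A probe set counted as expressed when its mean log2 value over both arrays reached 5.64, the median of all probe sets, and 32 of the 46 members did: 21 of 26 replication-dependent and 11 of 20 variant. Of these 32, 27 were higher on the knockout array and 5 were lower, whereas 51.7% of all 22519 expressed probe sets were higher and 48% lower. The median difference was 0.13 for the 32 members and 0.01 for all expressed probe sets. No member passed 2-fold in either direction, a size that 0.107% of all expressed probe sets reached. By 0.5 or more, 2 members were higher, where 1.24% of all expressed probe sets were, and none was lower, where 0.822% were. The SD of the differences over all expressed probe sets was 0.19, and the pooled SD between probe sets of 1 gene was 0.14.

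**Figure D2:**
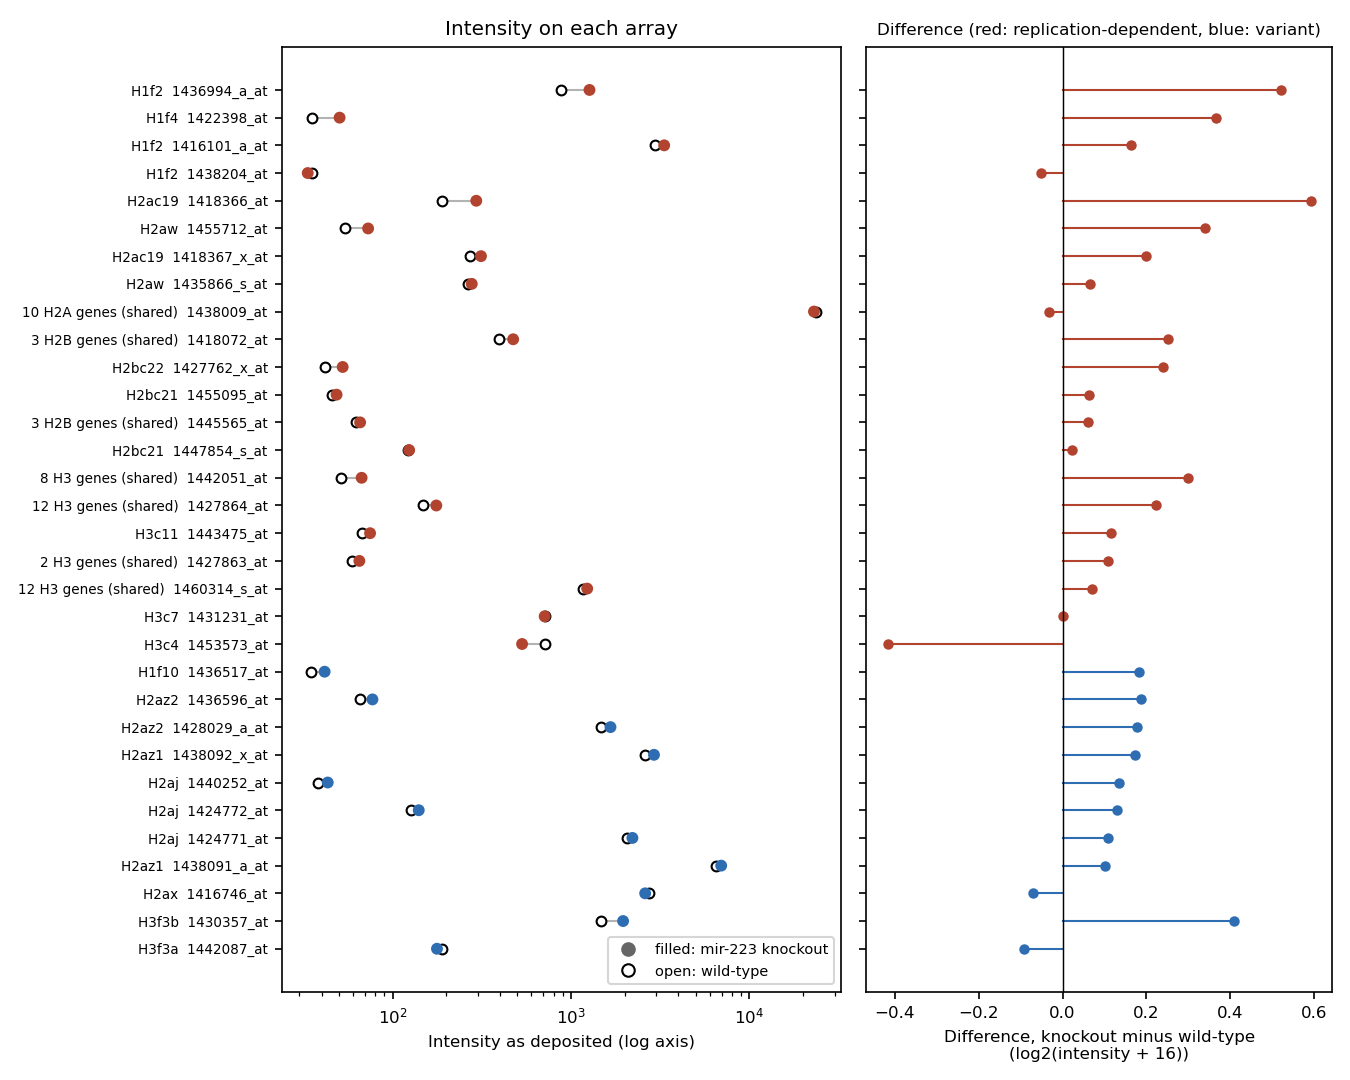
Left, deposited intensity (log axis) of the 32 expressed histone probe sets on the knockout array (filled) and the wild-type array (open). Right, the difference, knockout minus wild-type, of log2(intensity + 16), with replication-dependent histones in red and variants in blue. The points lie to the right of 0 for 27 of 32 probe sets, from -0.42 for H3c4 to 0.59 for a probe set of H2ac19.

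Replication-dependent and variant histones had similar median differences. The median was 0.12 over the 21 replication-dependent and 0.14 over the 11 variant probe sets, and the first minus the second was -0.02. Of the replication-dependent probe sets 85.7% were higher on the knockout array and of the variants 81.8%. These shares were 76.2% and 81.8% with quantile normalization, and 95.2% and 100% when differences were centred on the poly-A spike-in controls. With 1 value per gene, either the brightest or the mean, they were 88.9% of 9 replication-dependent and 71.4% of 7 variant genes. Without an expression filter they were 84.6% and 70.0%. The replication-dependent members were more spread: 12 of 21 (57.1%) lay within 0.2 of 0, against 10 of 11 variants (90.9%) and 76.1% of all expressed probe sets. Their expressed probe sets were also dimmer, with a median of the mean log2 value of 7.47, against 10.63 for the variants, and whether this sets their spread was not tested. Some genes of both classes count more than once in these shares. Among the 11 variants, 3 probe sets are of H2aj and 2 each of H2az1 and H2az2. Within every band of intensity the median of the histone members was above that of all probe sets. It was 0.16 over 12 members and -0.01 over all probe sets below a mean log2 value of 7, and 0.16 over 8 members against 0.02 between 7 and 9. Between 9 and 11 it was 0.12 over 6 members against 0.01, and above 11 it was 0.10 over 6 members against 0.00. Probe sets also assigned to symbols without a histone name are not in these bands. Above 11 they include the brightest probe set of H2az1 (-0.01) and those of H3.3, which ran from -0.01 to 0.23.

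**Figure D3:**
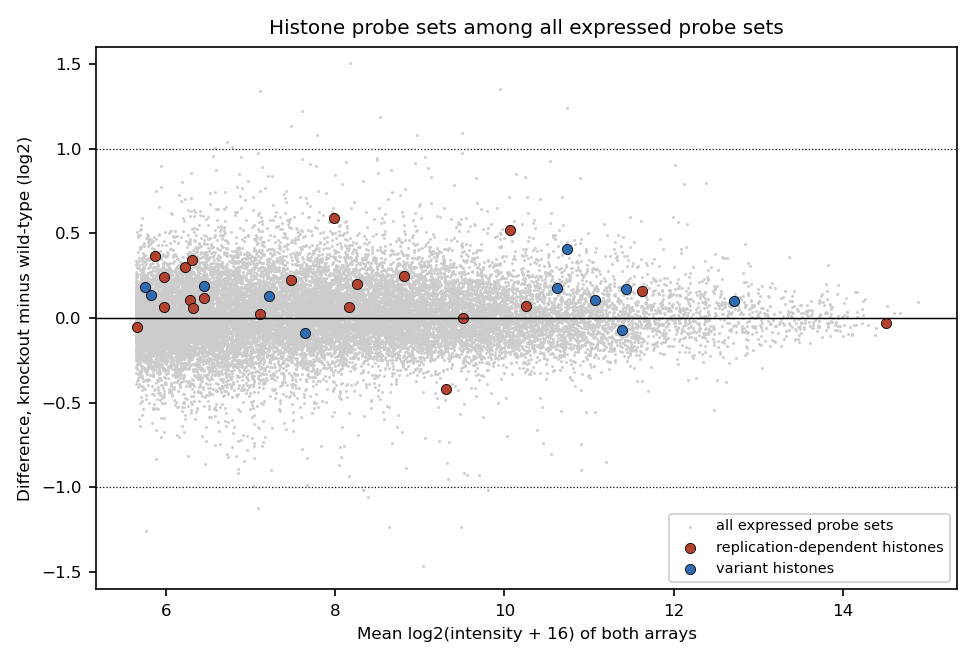
Difference, knockout minus wild-type (log2), against the mean log2(intensity + 16) of both arrays for all 22519 expressed probe sets (grey) and for the replication-dependent (red) and variant (blue) histones; dotted lines mark 2-fold, and 3 probe sets beyond the axis limit of 1.6 are not drawn. Histone points lie mostly above 0 and within 0.6 of it.

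Linker histones held one of the 2 largest differences. H1f2, formerly Hist1h1c, encodes the linker histone H1.2 and had 3 expressed probe sets. The first, 1436994_a_at, gave an intensity of 1269 on the knockout array and 879 on the wild-type array, a difference of 0.52. On 1416101_a_at the intensities were 3327 and 2972 on the knockout and wild-type arrays (0.16). The dimmest probe set, 1438204_at, gave 33.4 on the knockout array and 35.2 on the wild-type array (-0.05), just above the expression limit of 33.9 as a log mean. The probe sets of H1f2 thus spanned 0.57, about the size of its highest difference. H1f4, formerly Hist1h1e, encodes H1.4 and stood at 50.4 on the knockout array, against 35.5 on the wild-type array (0.37, or 0.20 with a pseudocount of 64). H1f6, the testis linker histone, was below the limit on both arrays, with 28.0 and 24.5 on the knockout and wild-type arrays. Among variant linker histones, H1f10, formerly H1fx, gave 41.6 on the knockout array and 34.8 on the wild-type array (0.18). The germ cell H1 genes H1f7 and H1f8 were not expressed.

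Replication-dependent H2A probe sets were higher in 4 of 5 expressed cases, with a median of 0.20. H2ac19, formerly Hist2h2aa2, had the largest difference of all members. Its probe set 1418366_at gave 294 on the knockout array and 190 on the wild-type array (0.59), and its 1418367_x_at gave 313 and 270 on the knockout and wild-type arrays (0.20). Both probe sets were higher on the knockout array, with differences that lay 0.39 apart. H2ac19 has a near-identical neighbour, H2ac18, and the probe set that the annotation shares between them was not expressed, at 11.2 on the knockout array and 8.16 on the wild-type array. H2aw, formerly Hist3h2a, gave 72.9 on the knockout array and 54.2 on the wild-type array for 1455712_at (0.34), but 278 on the knockout array and 265 on the wild-type array for 1435866_s_at (0.07). A brighter probe set, 1435865_at, stands outside the naming rule because it is also assigned to Trim17, and it gave 460.0 on the knockout array and 464 on the wild-type array (-0.01). The probe set shared by 10 H2A genes of the Hist1 cluster, 1438009_at, had intensities of 22991 on the knockout array and 23506 on the wild-type array (-0.03). It stood near the top of the intensity range on both arrays, and whether so bright a signal still follows RNA amount was not tested.

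Replication-dependent H2B probe sets were all higher on the knockout array among the 5 expressed, with a median of 0.06 and a range from 0.02 to 0.25. The probe set 1418072_at, shared by H2bc4, H2bc6 and H2bc8, gave 474 on the knockout array and 396 on the wild-type array (0.25). A second one for the same 3 genes, 1445565_at, gave 65.7 and 62.3 on the knockout and wild-type arrays (0.06). H2bc22, formerly Hist1h2bp, stood at 52.5 on the knockout array and 42.0 on the wild-type array (0.24). H2bc21, formerly Hist2h2be, differed little, with 124 and 122 on the knockout and wild-type arrays for 1447854_s_at (0.02) and 48.5 on the knockout array and 45.8 on the wild-type array for 1455095_at (0.06). H2bc18 and the remaining probe set of H2bc4, H2bc6 and H2bc8 were not expressed. Outside the naming rule, because H4bc24 is among their genes, 1452540_a_at gave 1351 on the knockout array and 1112 on the wild-type array (0.28) and 1425398_at gave 56.8 on the knockout array and 47.8 on the wild-type array (0.19).

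Replication-dependent H3 probe sets were higher in 6 of 7 expressed cases, with a median of 0.11, and held the lowest member. H3c4, formerly Hist1h3d, gave 532 on the knockout array and 715 on the wild-type array on its only single-gene probe set, 1453573_at. The difference of -0.42 lay at percentile 1.48 of all expressed probe sets. Its cluster neighbour H3c7, formerly Hist1h3f, was level between the arrays, with 711.4 on the knockout array and 710.5 on the wild-type array (0.00). H3c11 stood at 74.7 on the knockout array and 67.7 on the wild-type array (0.12). Probe sets shared by many H3 genes did not follow H3c4. That for 12 genes, 1460314_s_at, gave 1232 on the knockout array and 1172 on the wild-type array (0.07), and 1427864_at, for the same 12, gave 176 on the knockout array and 148 on the wild-type array (0.22). The probe set 1442051_at, for 8 H3 genes that include H3c4, gave 67.0 on the knockout array and 51.5 on the wild-type array (0.30). The last expressed one, 1427863_at for H3c2 and H3c10, was at 65.1 on the knockout array and 59.3 on the wild-type array (0.11).

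Seen by cluster, the Hist1 probe sets were higher in 9 of 12 expressed cases with a median of 0.11, those of Hist2 in 4 of 4 with a median of 0.13, and those of Hist3 in 2 of 2 with a median of 0.20. The expressed Hist2 probe sets are those of H2ac19 and H2bc21, and those of Hist3 are all of H2aw, so their counts cover few genes. The brighter H2aw probe set outside the naming rule stood at -0.01. The 3 expressed probe sets shared between clusters were also higher, with a median of 0.22. Shared probe sets of the class had a median of 0.11 over 7 and single-gene probe sets of 0.14 over 14.

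Variant H2A genes were close together. H2A.Z marks promoters and regulatory regions and is encoded by H2az1 and H2az2. H2az1, on 1438091_a_at, gave 6944 on the knockout array and 6470 on the wild-type array (0.10), and on 1438092_x_at it gave 2916 on the knockout array and 2584 on the wild-type array (0.17). H2az2 stood at 1664 on the knockout array and 1469 on the wild-type array for 1428029_a_at (0.18), and at 77.1 on the knockout array and 65.8 on the wild-type array for 1436596_at (0.19). The probe sets of H2az2 differed by 0.01, although their intensities lay far apart. H2aj, a close relative of canonical H2A, had 3 expressed probe sets with differences of 0.11, 0.13 and 0.14. On the brightest, 1424771_at, it gave 2208 on the knockout array and 2048 on the wild-type array. Every expressed member probe set of these 3 genes was higher on the knockout array, but 2 further probe sets of H2az1, outside the naming rule because they are also assigned to Gm8203, were split. The brightest for H2az1, 1416415_a_at, gave 12957 on the knockout array and 13061 on the wild-type array (-0.01), and 1456032_x_at gave 1553 on the knockout array and 1253 on the wild-type array (0.31). H2ax, whose protein is phosphorylated around DNA breaks and whose transcript can end in a stem-loop or in a poly(A) tail, was the lower variant H2A, with 2603 on the knockout array and 2734 on the wild-type array (-0.07).

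Variant H3.3 is deposited independently of replication and is encoded by H3f3a and H3f3b. H3f3b, on 1430357_at, gave 1957 on the knockout array and 1469 on the wild-type array, and its difference of 0.41 was the largest of the variants. H3f3a, on 1442087_at, gave 177 on the knockout array and 190 on the wild-type array (-0.09). The genes thus differed in direction on their single-gene probe sets. Another 5 probe sets that the annotation gives to both genes and to further H3.3-like loci stand outside the naming rule. Their differences ran from -0.01 to 0.23, all below that of 1430357_at. The brightest of them, 1455725_a_at, gave 12276 on the knockout array and 11930 on the wild-type array (0.04). The remaining variant members are the H2al1 group, known from testis, with H2al2a, H2al3, H2ap and H2bfm. None was expressed, and their 6 probe sets ranged from 6.10 to 27.6 on the knockout array and from 6.62 to 27.2 on the wild-type array.

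Histone H4 has no member, because each of its 5 probe sets is shared by 13 genes of which H4f16 does not match the naming rule. Of the 4 expressed, 2 were higher and 2 lower. The brightest, 1422948_s_at, gave 1351 on the knockout array and 1336 on the wild-type array (0.02), and the others stood at -0.13, -0.25 and 0.25. H4 therefore showed no common direction. In all, 15 probe sets had symbols that matched only in part. With the expressed ones of these added, the medians were 0.11 for 28 replication-dependent and 0.12 for 18 variant probe sets. The shares higher on the knockout array were then 78.6% and 77.8%, against 85.7% and 81.8% for the members alone. Other variants outside the naming rule included Macroh2a1, which encodes macroH2A1, a variant with a large extra domain, and Cenpa, the H3 variant of centromeres. Macroh2a1 gave 5835 on the knockout array and 5589 on the wild-type array (0.06). The brightest probe set of Cenpa gave 2424 on the knockout array and 2319 on the wild-type array (0.06), and its other expressed probe set stood at 0.21.

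Genes that work with histones were divided or more often lower. In histone messenger RNA synthesis and 3' end processing, 13 of 30 expressed genes were higher on the knockout array and 17 lower, with a median of -0.04, beside 49.7% higher over all 11006 expressed genes. Slbp, the stem-loop binding protein, gave 3107 on the knockout array and 3235 on the wild-type array (-0.06, and 0.10 on its other probe set). Npat, the coactivator of the clusters, gave 200 and 205 on the knockout and wild-type arrays (-0.03). By brightest probe set, the largest differences of this list were those of Mblac1 (-0.20), Ccne1 (-0.20), Srrt (-0.18) and Nfya (0.15). Mblac1 is a nuclease for histone pre-mRNA, and Srrt is a cap complex partner. Ccne1, the cyclin that activates Npat through Cdk2, stood at -0.31 on its other probe set. Nfya is a subunit of the CCAAT-binding factor NF-Y. Lsm11 was split, at 0.11 on its brightest probe set and -0.52 on its other, the only 1 of 50 in the list at -0.5 or less.

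Histone chaperones and deposition factors were higher in 13 of 34 expressed genes and lower in 21, with a median of -0.04. Spty2d1, an H3-H4 chaperone (0.33), Supt16, a subunit of FACT (0.29), and Ipo9, an importin for H2A-H2B (0.25), were higher. Nasp, an H3-H4 chaperone, was lower, with 1479 on the knockout array and 1770 on the wild-type array (-0.26). Expressed Supt16 probe sets reached 0.89. Among genes of histone modification and nuclear compaction, 6 of 13 were higher, with a median of -0.01. Lbr, the lamin B receptor of the lobed nucleus, stood at 0.21, Kmt5b, which methylates H4, at 0.15, Padi4, which citrullinates histones in neutrophils, at -0.17, and Hmgn1, a nucleosome-binding protein, at -0.26. These values are of the brightest probe set, and the direction differed on another one for Nasp (0.05) and Kmt5b (-0.22).

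S phase and replication genes were lower in 23 of 30 expressed cases and higher in 7, with a median of -0.04. Pcna, the sliding clamp, gave 8331 on the knockout array and 8520 on the wild-type array (-0.03). Rrm2, a subunit of ribonucleotide reductase, was the exception in size, with 6884 on the knockout array and 5362 on the wild-type array (0.36) on its brightest probe set and differences of 0.56 and 0.57 on its other 2. Pold1, a DNA polymerase subunit, stood at 0.29, Gmnn, the licensing inhibitor geminin, at -0.17 and Pola1, the catalytic subunit of DNA polymerase alpha, at -0.15. Mitosis genes were higher in 4 of 14 cases, with a median of -0.07, and the largest differences were those of the mitotic kinase Cdk1 (-0.21), the kinetochore motor Cenpe (-0.18), the kinase Plk1 (-0.13) and the kinetochore protein Cenpf (-0.12, and 0.02 on another probe set). Counted by probe sets, as the histones were, 36.8% of 57 S phase and 37.5% of 24 mitosis probe sets were higher, with medians of -0.03 and -0.02. The same shares were 44.0% of 50 for processing, 46.2% of 78 for chaperones and 14 of 28 for modification. None of these lists was tested, and they were chosen with earlier results of these data known.

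**Figure D4:**
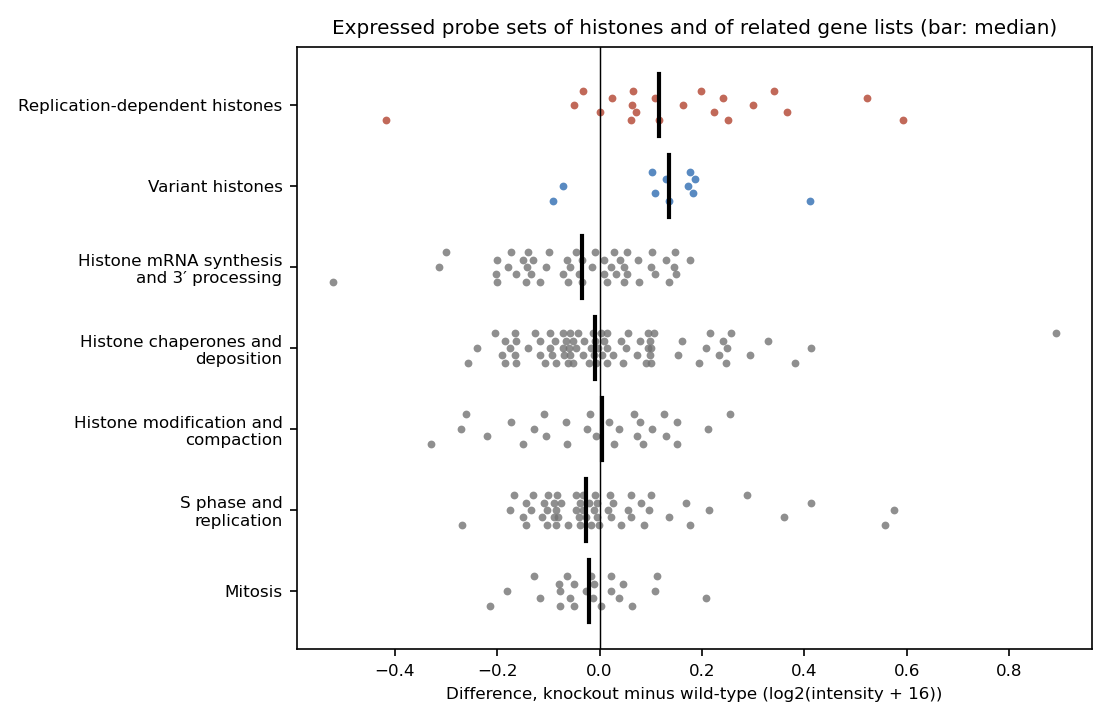
Difference, knockout minus wild-type, of log2(intensity + 16) for each expressed probe set of the replication-dependent histones (red), the variant histones (blue) and 5 related gene lists (grey), with black bars at the medians. The histone medians lie at 0.12 and 0.14, and those of the other lists lie between -0.03 and 0.01.

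On the knockout array the values spanned 4.49 to 31305, and on the wild-type array 4.56 to 29262. Neutrophil identity was checked with 18 marker genes, of which 15 were measured and all 15 were expressed; 13 were higher and their median was 0.15, close to that of the histones. Their summed intensity was 193793 on the knockout array and 182271 on the wild-type array, and S100a9, a calcium-binding protein, gave the highest intensity on either array. Markers of progenitors were higher in 6 of 8 (0.14) and those of monocytes and macrophages in 8 of 10 expressed (0.17). All 8 expressed markers of mast cells and basophils were lower, with a median of -0.54 and a summed intensity of 3996 on the knockout array and 5925 on the wild-type array. Markers of eosinophils (3 of 4 lower) and megakaryocytes (5 of 6 lower) were mostly lower too. The exceptions were large: Siglecf, a lectin of eosinophils, stood at 0.92 and Itgb3, an integrin of platelets, at 1.34. The other expressed probe set of Itgb3 stood at 0.37. Among the genes with the largest differences of each list, the neutrophil markers Cd177 (0.59), Cxcr2 (0.38) and Csf3r (0.33) were higher and Camp (-0.29) lower. Of the progenitor markers, Gata2 (-0.53) was lower, and Flt3 (0.30), Hoxa9 (0.23) and Myb (0.17) were higher. The monocyte and macrophage markers Apoe (1.51), Ly86 (0.71) and Cd68 (0.31) were higher and Cx3cr1 (-0.60) lower. The mast cell and basophil markers Cma1 (-0.76), Cpa3 (-0.74), Fcer1a (-0.56) and Mcpt8 (-0.55), the eosinophil markers Prg3 (-0.92), Prg2 (-0.73) and Epx (-0.34), and the megakaryocyte markers Ppbp (-1.06), Pf4 (-0.91) and Vwf (-0.48) were lower. Of other lineages, 3 of 5 measured erythroid markers were expressed, Gata1 (-0.22), Klf1 (-0.17) and Epor (0.18). Of B cell markers 3 of 5 were, Ighm (0.64), Cd79b (0.43) and Pax5 (-0.14), and the expressed probe sets of Ighm ran from -0.14 to 0.94. Of T and NK cell markers 2 of 6 were, Nkg7 (0.47) and Cd3d (-0.81). All 24 probe sets of the poly-A controls added to the RNA were lower on the knockout array, with a median of -0.17. They measure a few added transcripts (dap, lys, phe and thr) repeatedly, so they are not 24 separate observations. Of 18 probe sets of the hybridization controls, 17 were lower too, with a median of -0.11. The 3' minus 5' log2 signals of beta-actin were 0.25 on the knockout array and 0.33 on the wild-type array. The part of these differences in the histone values was not tested, and in bulk RNA fewer cells of a type and less RNA per cell cannot be told apart.

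The direction of the class medians was kept in all 17 other settings, but many of them could not reverse it. Leaving out germ cell members removed no expressed probe set and so could not change a value. A change of pseudocount turns no sign, and it left 21 and 11 expressed probe sets. Centring on the poly-A controls only raised each difference. With 18 of 21 and 9 of 11 probe sets already higher, the removals made here, or moving H2ax, could not make most of either class lower. Leaving out shared probe sets or H1f2 removed no expressed variant probe set, so neither could change the variant median. The class medians ran from 0.07 to 0.29 for the replication-dependent and from 0.09 to 0.31 for the variant histones. The upper ends come from centring on the poly-A controls, which also moved the median of all expressed probe sets to 0.18. The sign of the small gap between the classes was not stable, from -0.04 to 0.07.

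**Figure D5:**
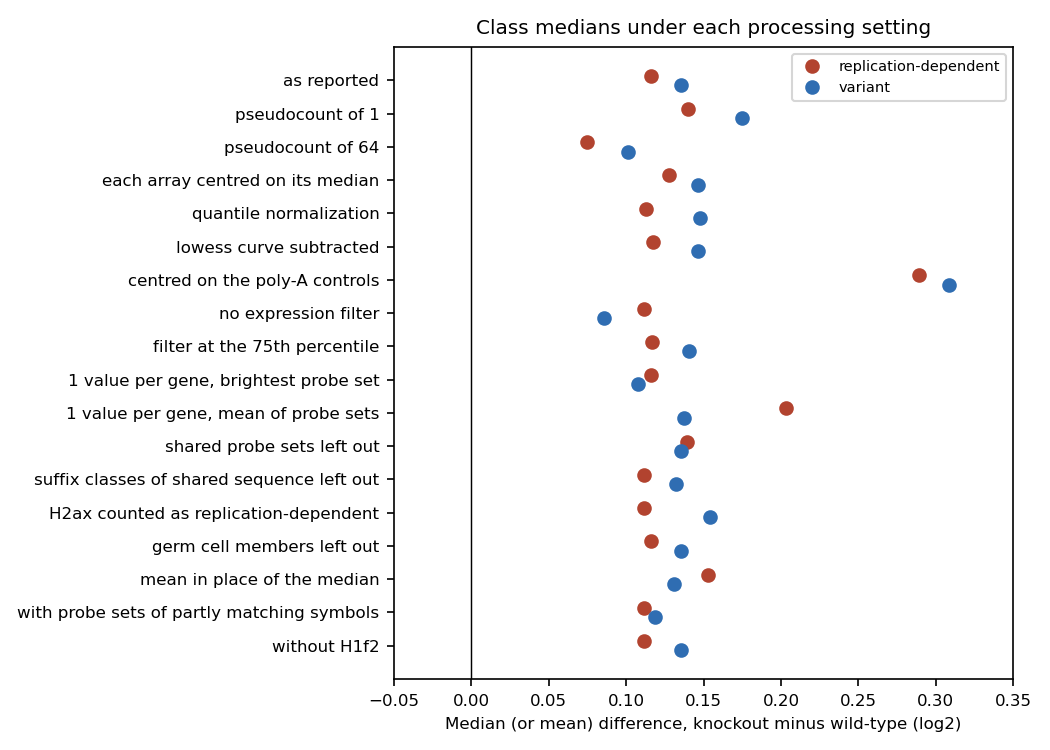
Median difference, knockout minus wild-type (log2; the mean in 1 setting), of the replication-dependent (red) and variant (blue) histones as reported and under 17 other settings. All points lie to the right of 0, and the order of red and blue changes between settings.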

How the data were processed

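Neutrophil cultures of 2 genotypes were measured on 1 array each, grouped by the genotype label. The deposited value of a probe set is a linear intensity. Per the labels, biotinylated cRNA was made with a 3' IVT kit. Neither the labels nor the file state how the scans were corrected, summarized and normalized. Joint normalization would hide a global difference in RNA content.

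Of 45101 probe sets, 64 controls were set aside. Symbols came from the platform annotation. All 58 member genes were found in RefSeq (GRCm38.p6), whose older names set the class. Intensities were used as deposited and transformed to log2(intensity + 16), which shrinks differences of dim genes. Genes of the other lists took their brightest single-gene probe set. No test was possible with 1 array per genotype. Every member could be named. Of each other list, the 4 genes with the largest differences were named. Slbp, Npat, Lsm11, Pcna, S100a9, H4, Macroh2a1 and Cenpa were added after their values were seen. Members and lists were chosen with earlier results of these data known. Summaries were tested on simulated data (Python 3.11.15, pandas 2.3.3). Alternatives covered the pseudocount (1 or 64), scaling, a lowess curve (span 0.3, statsmodels 0.14.6), the expression filter, and the choice and counting of probe sets.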

Additional observations from a re-analysis of the deposited data

How the results depend on the processing

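No paired analysis was possible because each genotype has 1 array, and for the same reason no replicate could be left out. Centring on the poly-A controls adds 0.17 to every difference by construction. It gave medians of 0.29 for replication-dependent and 0.31 for variant histones, 100% of variants higher, and 4 replication-dependent and 1 variant probe sets at 0.5 or more. It also put 4 members that were lower above 0. The difference between the classes, -0.02 as reported, was 0.026 without an expression filter, 0.0080 with the brightest probe set per gene, 0.065 with probe sets averaged per gene, 0.0039 without shared probe sets and 0.022 with means in place of medians; the cause was not tested. The 2 replication-dependent probe sets at 0.5 or more became 0 with a pseudocount of 64 and with either rule of 1 value per gene, 1 without suffix classes of shared sequence, and 1 without H1f2. The last, and the addition of partly matching probe sets, were chosen after seeing the data. Quantile normalization turned 2 members near 0 (H2bc21 and H3c7) and the lowess curve turned 1 (H3c7). In no setting did a histone pass 2-fold, or stand at -0.5 or less. With 1 array per genotype, differences of the size seen here cannot be separated from array to array error.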
